A study of Schmidtea mediterranea with 48 samples.

Results

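Late-rising transcripts after zfp1 knockdown were examined in whole planarians of the species Schmidtea mediterranea. A feature of the authors' expression table counted as late-rising when it was at least 2-fold above the control on day 18 of zfp1 RNA interference (RNAi), was not already 2-fold below it on day 12, had a log2 ratio of sox8 to control above -0.5 as the average of the 3 days, and lay above all 4 control libraries in at least 3 of the 4 zfp1 libraries of day 18. Of the 28413 features, 19094 had a mean of at least 1 RPKM (reads scaled to the length of the feature and the depth of the library) and could be considered, and 90 met every condition, which is 0.471% of those considered. The members were thus chosen by the measured levels of the zfp1 libraries of days 12 and 18 and of the sox8 and control libraries, so those values are given below as a description. The mean of at least 1 RPKM was taken over all 48 libraries, those of pax5 and of zfp1 day 6 included. Tests are given for differences that the rule did not use, although some of them share control or sox8 libraries with it. Their error estimates come from the spread within all groups, including those that chose the members.

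Planarians renew all their tissues from dividing stem cells called neoblasts. The zinc finger gene zfp1 is expressed in a class of neoblasts that makes the epidermis, and the epidermal lineage passes through a series of post-mitotic precursors before its cells reach the surface. Loss of zfp1 is therefore known mainly for transcripts that disappear. The transcripts described here were chosen for the other direction, on the last day of the time course. RNAi by feeding lets the animal take up double-stranded RNA made in bacteria, after which the matching transcript is degraded throughout the body.

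The animals were of the clonal line CIW4 and were given 3 feedings, 3 days apart, of bacteria making double-stranded RNA against zfp1, sox8, pax5 or unc22. The names sox8 and pax5 stand for genes of the Sox and Pax families of transcription factors. The unc22 sequence comes from a nematode muscle gene and was the control that matches no planarian target. Whole worms were taken on days 6, 12 and 18, and each of the 12 groups had 4 polyA libraries, numbered 1 to 4, so 48 in all. The labels do not say what a replicate was. The p-values therefore reflect only how much libraries vary within groups, pooled over all 12 groups, and part of that may be technical. RNA came from whole animals, so a transcript made by more cells and one made more strongly per cell cannot be told apart. The table pairs no identifier with a gene name, so members carry SMED30 identifiers, no role or sequence is given for them, and neither the knockdown of the targets nor markers of cell types were checked. Members with near-identical copies elsewhere are uncertain, since the handling of reads that match several features is not given in the sources used here.

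The condition on day 18 was the one that mattered most. In all, 96 considered features were at least 2-fold above the control on day 18, and 6 of them were left out by another condition. The ratio of day 18, on the scale of log2 of the group means plus 0.5 RPKM, had a median of 1.33 over the 90 members and ran from 1.00 to 5.15. It was at least 1.5 in 37 members, at least 2 in 20 and at least 3 in 7. All 4 zfp1 libraries lay above all 4 control libraries in 87 members, a state that 11.6% of considered features shared, and 3 of 4 did so in the other 3 members. The limma test called 89 of the 90 higher, against 9.54% of the 22667 features tested, and nothing is read from that count because these libraries made the choice. The member it did not call was SMED30011034, with a log2 change of 0.93.

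One library of the group that chose the members stood apart. Replicate 3 of zfp1 day 18 was the highest of its group in 71 of 90 members (78.9%), whereas it was the highest in 27.6% of considered features. Replicate 1 was the lowest in 41 members. Replicate 3 was at least 2 times the next library in 20 members, against 33 considered features in all (0.173%). The rule used the mean of the 4 libraries, so a feature with 1 very high library was more likely to be chosen. These comparisons with considered features are therefore a description. Without it, 70 of the 90 members were still at least 2-fold above unc22, and the median ratio was 1.21 (range 0.38 to 3.20). It held 28670259 reads, and the other 3 held 8470225 to 32354522.

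The members closest to the threshold were SMED30029408, at 1.00, and SMED30016901, at 1.01. Just outside it were SMED30024850, at 0.995, and SMED30028497, at 0.993, which met every other condition. Of the 6 left out, SMED30004187 had a day 18 ratio of 4.52 and SMED30029247 one of 3.69, values that SMED30028552, and for the latter also SMED30007501, exceeded among the members. Both had been over 2-fold below the control on day 12, at -1.11 and -1.35. SMED30003487, at 2.07, was left out by its sox8 values, and SMED30023176, SMED30023835 and SMED30002911 had fewer than 3 libraries above the control.

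**Figure D1:**
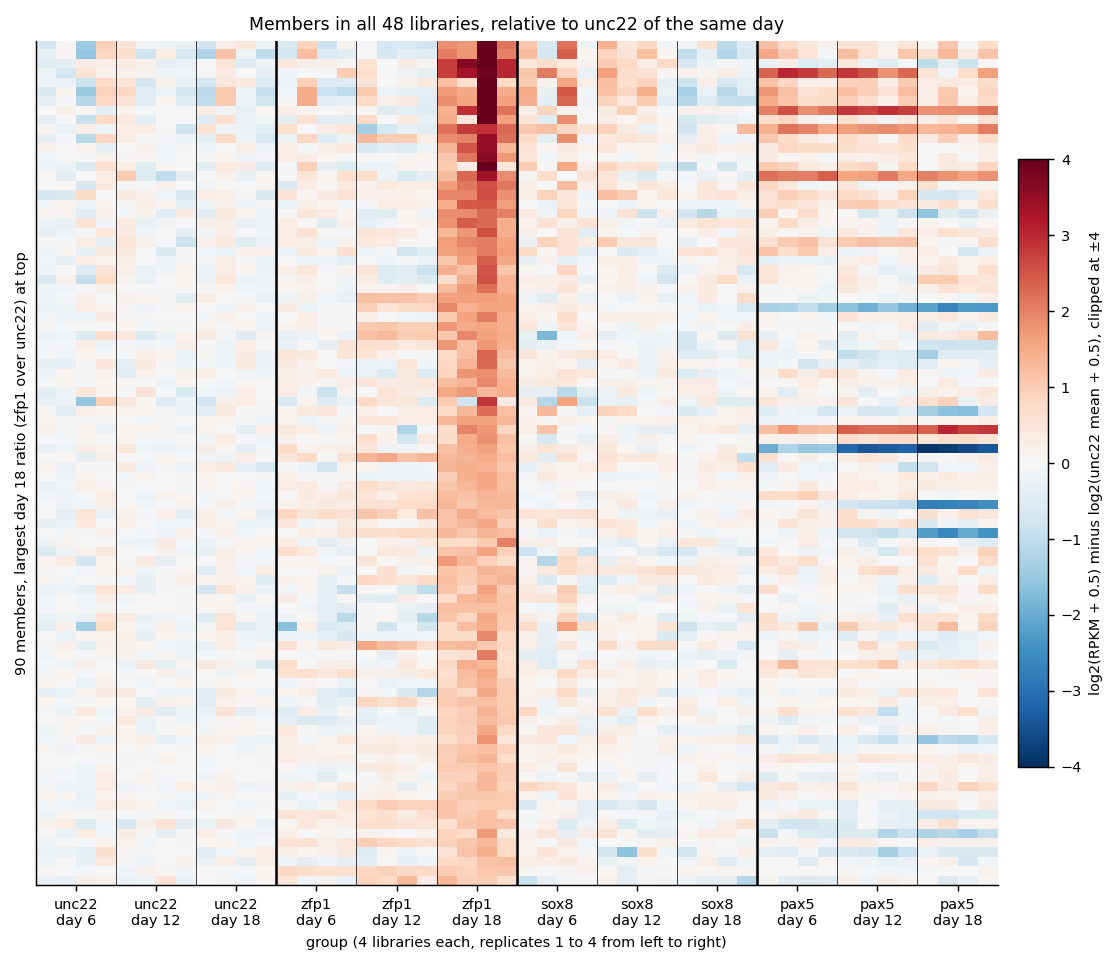
Each row is 1 of the 90 members, ordered by its day 18 ratio, and each column 1 of the 48 libraries, with replicates 1 to 4 of a group from left to right. Colour is the log2 difference of the library from the unc22 mean of the same day after 0.5 RPKM was added, clipped at 4 in either direction, and the red block is zfp1 day 18, with the column of replicate 3 the deepest red in most rows.

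Levels in unc22 on day 18 are the denominator of the ratio that chose the members, so they are a description. The members' unc22 day 18 mean had a median of 5.25 RPKM (range 0.542 to 246), against 9.15 RPKM over all considered features, and their zfp1 day 18 mean had a median of 15.5 RPKM, against 8.70 RPKM. In the control, 55 members were under 10 RPKM and 7 were at 50 RPKM or more. Members were also short, with a median length of 675 bases (range 150 to 3682) against 1217 bases over considered features, as inferred from the steps between RPKM values. Depth was 6894458 to 65663283 reads per library (median 23162610), and 64 members had at least 20 reads in every unc22 day 18 library. The least was 4 reads, so single values of the lowest members carry a large counting error.

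The member of highest level in the control was SMED30015120. In unc22 day 18 libraries it stood at 293, 270, 206 and 214 RPKM. In zfp1 day 18 libraries it stood at 547, 604, 723 and 476 RPKM. Every zfp1 library was thus well above every control library, at a ratio of 1.26 on the log2 scale. SMED30028826, the next highest, had 86.4, 97.4, 97.4 and 91.1 RPKM in unc22 and 173, 182, 269 and 161 RPKM in zfp1. Its ratio was 1.07, again with no overlap between groups.

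For most members the ratio was smaller on days 6 and 12 than on day 18, the day that chose them. Choice by a high day 18 ratio favours this order by itself, so lateness is not read as a property of the members. Differences between zfp1 and unc22 also grew with time over all features tested. At an unadjusted limma p under 0.05 there were 10.9% of them on day 6 and 32.2% on day 18. On day 6 the zfp1 ratio to unc22 had a median of 0.11 (range -0.47 to 0.69), and 87 of the 90 were within 0.5 of no change, a state that 99.1% of considered features shared. On day 12 its median was 0.16 (range -0.64 to 1.34), with 67 members within 0.5 of no change, 21 at 0.5 or more and 5 at 1 or more. Limma called 24 members higher and 0 lower on day 12, against 5.01% and 8.14% of all features tested. The rule had a bound on low day 12 values, so these counts are a description, and at an unadjusted p under 0.05 there were 30 members in either direction (33.3%), against 25% of all features tested.

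The 5 members already at least 2-fold up on day 12 did not all go on upward. SMED30033583 stood at 11.1, 10.4, 11.7 and 10.8 RPKM in unc22 day 12 libraries and at 29.0, 32.3, 24.7 and 28.2 RPKM in zfp1 ones, a ratio of 1.34 that was again 1.34 on day 18. SMED30032680 had 5.55, 5.33, 5.13 and 3.57 RPKM in unc22 against 12.0, 11.5, 11.3 and 10.5 RPKM in zfp1 on day 12, a ratio of 1.13, which became 1.63 by day 18. In both, the zfp1 libraries were higher without overlap. SMED30005998 went from 1.02 to 1.57, SMED30035874 from 1.12 to 1.55, and SMED30002303 from 1.16 to 1.13.

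Comparison of zfp1 with unc22 on day 6 used zfp1 libraries outside the rule, while the unc22 libraries entered it only through the bound on sox8. Limma called 5 of the 90 members higher (5.56%) and 1 lower (1.11%), against 0.728% and 0.631% of all features tested, and the median log2 change was 0.13 against 0.0032 over all features tested. The count of members called higher was 8 when libraries were weighted and 3 when these groups were fitted alone, fits for which no share of all features is given here. SMED30016901 had 5.16, 4.90, 4.79 and 4.85 RPKM in unc22 and 8.85, 8.31, 7.75 and 8.10 RPKM in zfp1. It rose by 0.69 (SE 0.07, adjusted p = 1.56e-08) with tight groups that did not overlap. Its zfp1 levels were 9.60, 10.3, 9.18 and 9.50 RPKM on day 12 and 10.3, 9.57, 10.8 and 10.8 RPKM on day 18, while unc22 stayed between 4.68 and 6.00 RPKM on those days. This member, next to the smallest by the day 18 ratio, therefore had most of its difference by day 6.

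SMED30032357 had 3.55, 2.72, 5.20 and 2.82 RPKM in unc22 and 6.90, 5.23, 6.32 and 5.77 RPKM in zfp1 on day 6. The groups just missed overlapping, and it rose by 0.72 (SE 0.17, adjusted p = 0.0152), a call that was lost in 4 of 18 alternatives. These were the fit of the groups compared alone (adjusted p = 0.128) and the fits without zfp1 day 6 replicate 1 (0.0716), unc22 day 6 replicate 2 (0.0904) or unc22 day 6 replicate 4 (0.0831). Smaller rises were called for SMED30002753 (0.60), SMED30002437 (0.47) and SMED30021941 (0.45). The 1 member that fell was SMED30026906, with 6.83, 7.12, 7.27 and 6.48 RPKM in unc22 and 5.14, 4.39, 4.70 and 5.50 RPKM in zfp1. It changed by -0.45 (SE 0.12, adjusted p = 0.0335), a call lost in 6 of 18 alternatives, each of which left out 1 library of zfp1 or unc22 day 6 (replicates 1, 2 and 3 of either), with an adjusted p of up to 0.103. By day 18 this member stood at 3.61 to 4.29 RPKM in unc22 and at 7.96 to 10.2 RPKM in zfp1, the opposite order.

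**Figure D2:**
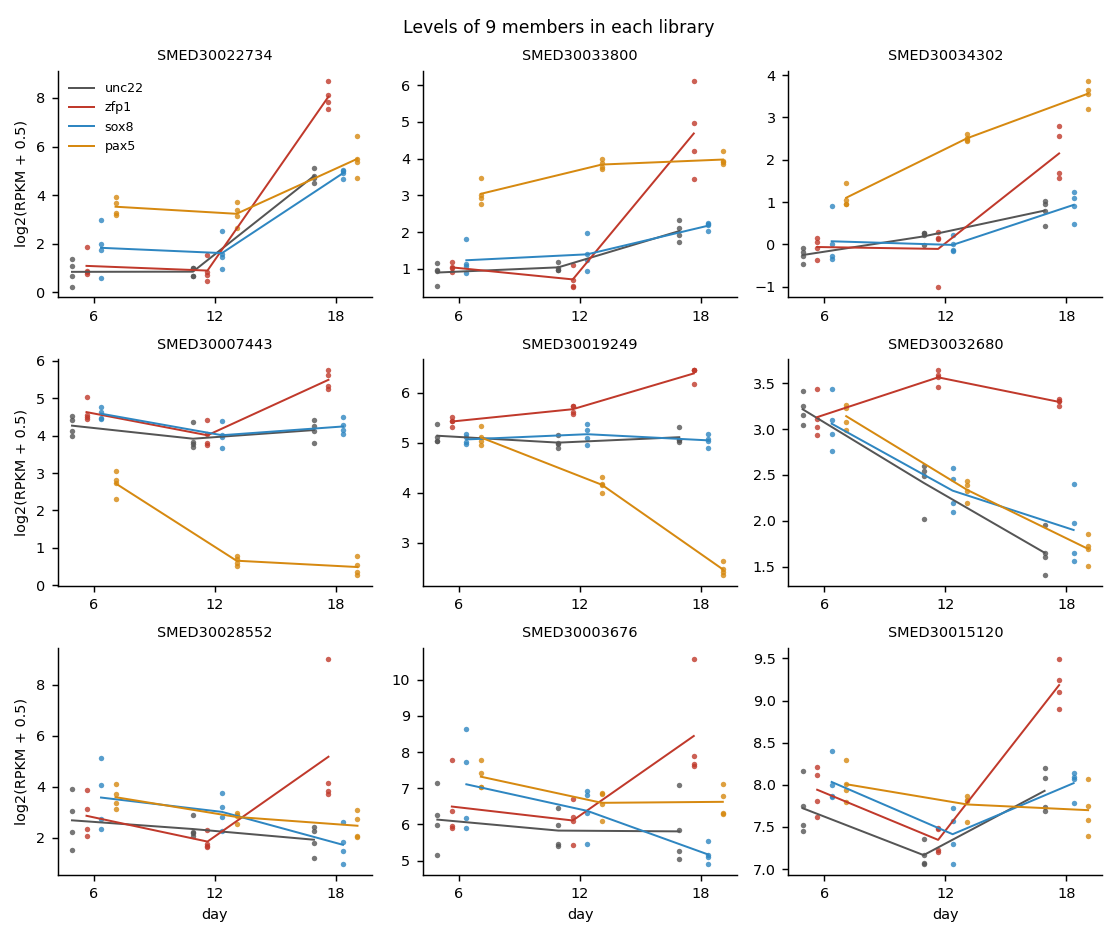
Levels of 9 members as log2 of RPKM plus 0.5, with 1 point per library, 4 per group, set slightly apart around days 6, 12 and 18, and lines through the group means of the log2 values. The zfp1 line is above unc22 on day 18 in all 9 panels, pax5 is above the other groups on day 6 for SMED30022734, SMED30033800 and SMED30034302, and it is far below them for SMED30007443.

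Over time within a knockdown, members differed in what made up the day 18 ratio. From day 6 to day 18 the zfp1 group mean had a median log2 difference of 1.12 over the members, against -0.01 over considered features, and the unc22 mean one of -0.21, against 0.02. The zfp1 mean was at least 2-fold higher on day 18 than on day 6 in 52 members, within 2-fold in 37 and at least 2-fold lower in 1. In unc22, 13 members were at least 2-fold lower on day 18, 11 at least 2-fold higher and 66 within 2-fold. These values share libraries with the rule and carry no test.

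In 11 members, singled out after their values were seen, unc22 was at least 2-fold lower on day 18 than on day 6 while zfp1 was less than 2-fold up. SMED30032680 is an example. It stood at 7.75, 8.41, 10.1 and 9.01 RPKM in unc22 on day 6 and at 3.36, 2.64, 2.54 and 2.15 RPKM on day 18. In zfp1 it stood at 7.65, 10.4, 8.16 and 7.16 RPKM on day 6 and at 9.35, 9.36, 9.53 and 9.04 RPKM on day 18. The zfp1 level was thus about the same on both days while the control level was far lower on the later one. SMED30005998 went from a mean of 10.1 ± 0.264 to 3.85 ± 0.517 RPKM in unc22 (SD, n = 4) while its zfp1 libraries held 10.3 to 12.1 RPKM on day 6 and 11.5 to 13.9 RPKM on day 18. SMED30027500 went from 124 ± 18.1 to 59.2 ± 2.70 RPKM in unc22 and from 152 ± 19.9 to 144 ± 7.54 RPKM in zfp1. The longest member, SMED30005872, with an inferred 3682 bases, had the same form at 66.9 ± 7.42 and 30.0 ± 2.16 RPKM in unc22 and 56.6 ± 5.26 and 62.3 ± 1.61 RPKM in zfp1. SMED30011034 was also among them, but its zfp1 day 18 mean of 101 RPKM leaned on replicate 3. That library was 5.68 times the mean of the others, and without it the day 18 ratio was 0.38. The rest of the 11 were SMED30035264, SMED30026864, SMED30003317, SMED30010476, SMED30028665 and SMED30035485.

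SMED30035485 was the most extreme of them. It had 234, 245, 152 and 306 RPKM in unc22 day 6 libraries, 17.0, 17.1, 20.3 and 18.0 RPKM on day 12, and 12.0, 13.2, 13.0 and 14.5 RPKM on day 18. In zfp1 it had 156, 288, 241 and 309 RPKM on day 6, 20.6, 24.1, 22.0 and 22.2 RPKM on day 12, and 43.2, 58.1, 81.0 and 58.9 RPKM on day 18. It was thus far lower on day 12 than on day 6 in both groups, and higher again on day 18 in zfp1, where it stayed below its day 6 level. With pax5 it also fell, and limma gave a change of -3.80 (SE 0.22, adjusted p = 3.71e-16) from day 6 to day 12 and of -4.13 (SE 0.22, adjusted p = 5.23e-18) from day 6 to day 18.

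The opposite form was that of SMED30022734. It was at 1.12, 0.676, 2.10 and 1.60 RPKM in unc22 on day 6, and at 25.9, 34.4, 27.5 and 21.9 RPKM on day 18. In zfp1 it went from 1.20, 1.34, 1.27 and 3.19 RPKM to 188, 280, 415 and 225 RPKM. Both groups were higher on day 18, by 3.90 in unc22 and by 6.94 in zfp1 on the log2 scale, so this member had the day 18 difference on top of a higher control level. In 11 members both groups were at least 2-fold up, in 39 zfp1 alone was, in 2 zfp1 was at least 2-fold up while unc22 was at least 2-fold down, and in 27 both were within 2-fold.

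**Figure D3:**
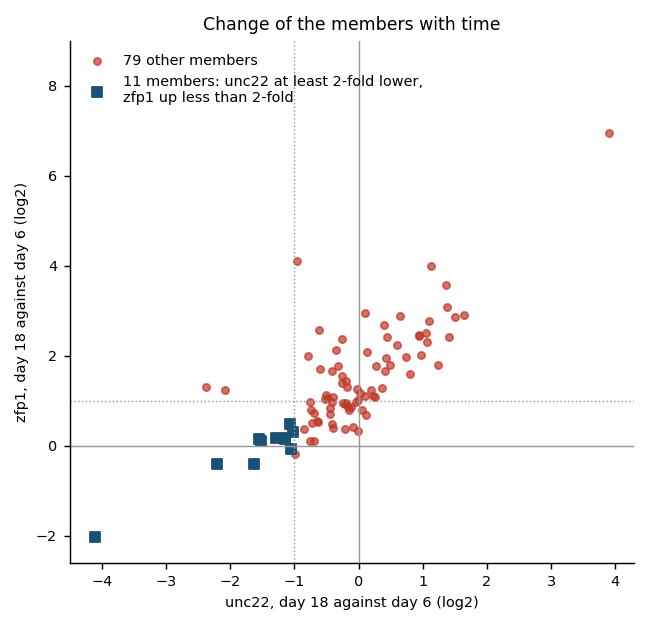
Each point is a member, with the log2 ratio of the day 18 to the day 6 mean in unc22 on the horizontal axis and in zfp1 on the vertical axis, and dotted lines at the 2-fold marks. The 11 squares are members that were at least 2-fold lower on day 18 in unc22 and less than 2-fold up in zfp1, and the point at upper right is SMED30022734.

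In 8 members, singled out after their values were seen, replicate 3 was at least 3 times the next library. SMED30028552, the member of largest ratio and of most unequal libraries, had 1.82, 4.30, 4.8 and 2.99 RPKM in unc22 day 18 libraries and 13.7, 12.6, 518 and 17.0 RPKM in zfp1 ones. Its ratio was 5.15 with replicate 3 and 1.91 without it, and the other 3 zfp1 libraries still lay above all 4 controls. SMED30007501 had 3.03, 17.8, 6.61 and 3.57 RPKM in unc22 and 34.3, 27.3, 366 and 32.8 RPKM in zfp1. Its ratio was 3.81, and 1.95 without replicate 3. SMED30003676 had 32.4, 135, 57.3 and 37.9 RPKM in unc22 and 238, 195, 1538 and 205 RPKM in zfp1. Its ratio was 3.04, and 1.69 without replicate 3.

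The remaining 5 of these were SMED30017639, SMED30024391, SMED30004394, SMED30013673 and SMED30011034. Without replicate 3 their ratios were 0.91, 1.57, 1.29, 0.64 and 0.38, so 3 of the 5 then fell below the 2-fold bound. Summed over the 8 members, zfp1 day 18 replicates 1 to 4 held 511, 363, 4124 and 419 RPKM. The 8 also varied together elsewhere. Over the 44 libraries outside zfp1 day 18, their deviations from the group means had a median pairwise correlation of 0.847 (28 pairs, range 0.523 to 0.968), against 0.0928 over the 3321 pairs of other members. These points share libraries and the correlation is a description.

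Those 8 members were together high in single libraries of other groups. On day 6 their sum was 304, 351, 152 and 691 RPKM in unc22 replicates 1 to 4. It was 292, 688, 262 and 285 RPKM in zfp1. It was 717, 245, 1449 and 305 RPKM in sox8. Replicate 4 of unc22, replicate 2 of zfp1 and replicate 3 of sox8 were thus the highest of their groups. The median log2 difference of the 8 from their group means was 0.848, 0.863 and 1.12 in these libraries. In sox8 replicate 1, whose sum also exceeded those of replicates 2 and 4, it was 0.108. By the same measure, SMED30016139, not among the 8, followed SMED30003676 with a correlation of 0.934 over the 44 libraries, and it had 113, 119, 341 and 140 RPKM in zfp1 day 18 libraries against 23.3, 52.1, 26 and 18.2 RPKM in unc22. The most alike pair of all members was SMED30025142 and SMED30000022, at 0.981, with inferred lengths of 2793 and 971 bases and day 18 ratios of 1.16 and 1.18.

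**Figure D4:**
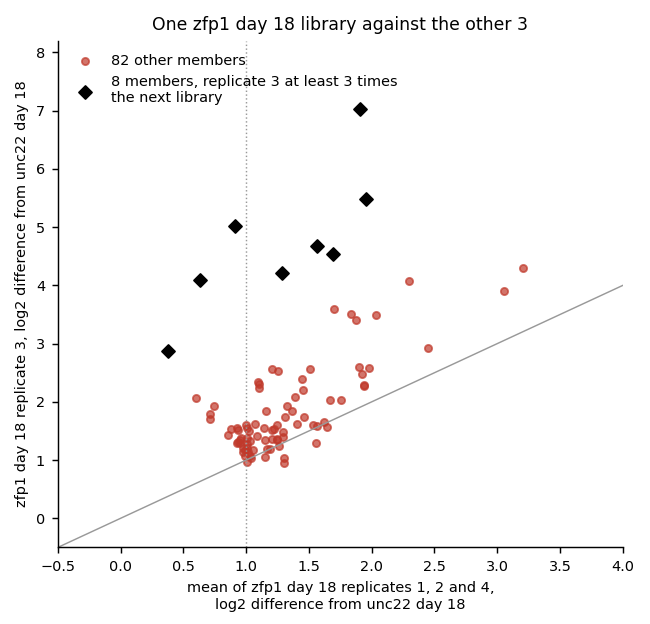
Each point is a member, with the log2 difference of the mean of zfp1 day 18 replicates 1, 2 and 4 from unc22 day 18 on the horizontal axis and that of replicate 3 on the vertical axis, after 0.5 RPKM was added. The line marks equal values, most members lie above it, and the 8 diamonds are those in which replicate 3 was at least 3 times the next library.

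With sox8 the rule set a bound on the lower side alone. The ratio of sox8 to unc22 had a median of 0.22 on day 6 (range -0.51 to 1.33), 0.06 on day 12 (-0.44 to 0.92) and 0.03 on day 18 (-0.86 to 0.50). Limma called 0 of the 90 on each day, and at an unadjusted p under 0.05 there were 17 members (18.9%) at day 6, against 18.3% of all features tested. The day 12 count was 9 (10%), against 6.28%, and the day 18 count was 5 (5.56%), against 8.6%. Of all features tested, limma called 0.375% higher and 0.397% lower on day 6, 0.0441% and 0.243% on day 12, and 0.0574% and 0.706% on day 18.

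The pax5 libraries entered the rule only through the mean over all 48 libraries. The unc22 libraries of days 6 and 12 that they are compared with also entered it through the sox8 average and, on day 12, through the lower bound on zfp1. On day 6 limma called 11 of the 90 higher (12.2%) and 2 lower (2.22%) than unc22, against 2.44% and 2.68% of all features tested. On day 12 it called 11 higher (12.2%) and 7 lower (7.78%), against 2.06% and 4.20%. On day 18 pax5 was compared with sox8, whose libraries bounded the choice on 1 side. Limma called 8 higher and 8 lower (8.89% each), against 1.84% and 4.06%. A fit of these groups alone called 22 higher. The share of all features called in that fit is not given here, so nothing is read from the 22. Median changes stayed small, at 0.13, 0.11 and 0.10 in that order, against 0.01, -0.0020 and 0.0059 over all features tested. Of the 90, 64 were called in none of the 3 comparisons, 16 (17.8%) were higher in at least 1 and 10 (11.1%) lower in at least 1. Of all features tested, 89.6% were called in none, 4.78% higher in at least 1 and 5.7% lower in at least 1. Set against unc22 on day 18, whose libraries chose the members, pax5 gave 8 higher and 10 lower, against 2.48% and 4.98% of all features tested, from which nothing is read.

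Higher in all 3 comparisons were SMED30018133, SMED30025161, SMED30031202, SMED30033800 and SMED30034302. Of all features tested, 0.388% were higher in all 3. SMED30033800 had 1.79, 1.45, 1.55 and 1.45 RPKM in unc22 day 12 libraries and 14.3, 12.7, 15.3 and 13.2 RPKM in pax5 ones. It rose by 2.80 (SE 0.27, adjusted p = 8.21e-11), every pax5 library being several-fold above every control. On day 18 pax5 libraries held 14.0, 14.6, 14.8 and 17.8 RPKM of it, sox8 libraries 4.11, 4.21, 4.19 and 3.57 RPKM and zfp1 libraries 10.3, 30.9, 68.9 and 18.0 RPKM. The pax5 libraries were alike on days 12 and 18, whereas those of zfp1 day 18 differed widely.

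SMED30034302 climbed through the pax5 time course. It had 1.43, 2.23, 1.58 and 1.44 RPKM on day 6, 5.61, 5.05, 4.92 and 5.18 RPKM on day 12 and 8.64, 14.0, 11.2 and 12.0 RPKM on day 18, with no overlap between days. The rise from day 6 was 1.41 by day 12 (SE 0.24, adjusted p = 1.63e-05) and 2.46 by day 18 (SE 0.24, adjusted p = 3.00e-11). In sox8 day 18 libraries it had 1.37, 1.65, 1.86 and 0.897 RPKM, and pax5 was 2.63 higher (SE 0.24, adjusted p = 1.26e-11). In zfp1 day 18 libraries it had 2.45, 6.40, 5.39 and 2.72 RPKM, all below the pax5 ones. Limma placed zfp1 below pax5 on that day by -1.41 on the log2 scale, although the zfp1 libraries had been chosen for being high.

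SMED30031202 was at 1.42, 0.920, 1.39 and 1.79 RPKM in unc22 day 6 libraries and at 8.2, 7.37, 7.2 and 9.35 RPKM in pax5 ones. It rose by 2.20 (SE 0.31, adjusted p = 1.57e-06) without overlap. On day 18 it was at 5.66, 4.78, 4.04 and 4.87 RPKM in pax5 and below 1 RPKM in all 4 sox8 libraries (0.642 to 0.997), a difference of 2.01 (SE 0.31, adjusted p = 5.34e-06). In zfp1 day 18 libraries it had 3.16, 6.95, 15.5 and 5.04 RPKM. The pax5 and zfp1 libraries of that day therefore overlapped for this member.

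SMED30022734, described above for its steep time course, rose with pax5 on the 2 earlier days. On day 6 it had 9.21, 14.8, 12.4 and 8.64 RPKM in pax5 libraries, each above the unc22 range of 0.676 to 2.10 RPKM, and the change was 2.68 (SE 0.36, adjusted p = 6.62e-07). On day 12 it had 12.6, 10.1, 5.85 and 8.38 RPKM against 1.53, 1.51, 1.1 and 1.12 RPKM in unc22, a rise of 2.38 (SE 0.36, adjusted p = 4.35e-06). With zfp1 it was still at 2.41, 1.31, 1.14 and 0.892 RPKM on day 12. On day 18 it was not among those called against sox8: pax5 libraries had 40.1, 25.5, 44.9 and 85.8 RPKM and sox8 libraries 31.2, 29.5, 32.3 and 25.1 RPKM, which overlap.

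SMED30018133 rose by 1.77 on day 6 and by 1.84 on day 12 against unc22, and was 1.38 higher than sox8 on day 18 (SE 0.29 for each, adjusted p = 2.62e-05, 8.25e-06 and 8.47e-04). SMED30025161 rose by 0.74 and 0.72 and was 0.71 higher than sox8 (SE 0.22 for each, adjusted p = 0.0383, 0.0374 and 0.0429). Members called on both earlier days but not against sox8 were SMED30022734, SMED30021397 and SMED30028503. SMED30021397 rose by 0.88 and then by 1.17, and SMED30028503 by 0.43 and then by 0.39.

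Lower in all 3 comparisons were SMED30007443 and SMED30032382. Of all features tested, 1.95% were lower in all 3, so this state was about as common among all features as among the members. SMED30007443 had 15.3, 17.0, 22.6 and 21.0 RPKM in unc22 day 6 libraries and 4.45, 7.75, 6.15 and 6.52 RPKM in pax5 ones. It fell by 1.54 on the log2 scale (SE 0.17, adjusted p = 2.49e-09). By day 12 pax5 had 1.23, 0.936, 1.01 and 1.14 RPKM against 19.9, 13.2, 12.6 and 13.8 RPKM in unc22, a change of -3.26 (SE 0.17, adjusted p = 8.53e-20). On day 18 pax5 had 0.699, 0.788, 0.968 and 1.20 RPKM and sox8 15.9, 17.4, 22.3 and 18.8 RPKM, a change of -3.76 (SE 0.17, adjusted p = 3.72e-22). The same transcript stood at 39.8, 48.8, 53.8 and 37.4 RPKM in zfp1 on day 18. The pax5 and zfp1 libraries therefore lay on opposite sides of every unc22 and sox8 library of that day.

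SMED30032382 had 7.95, 8.33, 11.9 and 10.3 RPKM in unc22 day 6 libraries and 3.58, 3.82, 4.68 and 3.35 RPKM in pax5 ones, a change of -1.21 (SE 0.13, adjusted p = 2.79e-09). On day 12 pax5 held 1.23, 0.910, 1.37 and 0.906 RPKM against 5.02, 4.31, 4.55 and 5.40 RPKM, a change of -1.74 (SE 0.13, adjusted p = 3.64e-14). Against sox8 on day 18 the change was -2.08 (SE 0.13, adjusted p = 8.42e-17). No comparison had overlapping libraries. In zfp1 it was at 26.4, 18.3, 20.7 and 20.7 RPKM on day 18, with a ratio of 1.63 to unc22.

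SMED30019249 and SMED30005940 were lower with pax5 from day 12 on. SMED30019249 had 32.1, 34.0, 39.8 and 30.3 RPKM in pax5 on day 6 and 33.9, 32.1, 32.5 and 41.1 RPKM in unc22, which overlap. It had 19.4, 17.5, 17.2 and 15.5 RPKM on day 12 and 4.59, 4.82, 5.07 and 5.76 RPKM on day 18. From day 6 it fell by 2.63 on the log2 scale (SE 0.09, adjusted p = 1.54e-25), with no overlap between days. On day 18 sox8 libraries held 29.3, 32.3, 33.0 and 35.8 RPKM, and pax5 differed from them by -2.57 (SE 0.09, adjusted p = 2.68e-26). SMED30005940 fell by 2.44 from day 6 to day 18 with pax5 (SE 0.10, adjusted p = 8.36e-23) and differed from sox8 by -2.25 (SE 0.10, adjusted p = 2.38e-22). In zfp1 their ratios to unc22 were 0.67 and 0.69 on day 12 and 1.27 and 1.25 on day 18.

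The other members lower in at least 1 comparison were SMED30000412, SMED30001994, SMED30014642, SMED30021941, SMED30028563 and SMED30029780, with changes between -1.34 and -0.57 where called. Those higher in at least 1, beyond the ones above, included SMED30035537, at 0.99 above sox8 on day 18, SMED30024859, at 0.98, and the abundant SMED30015120, at 0.60 above unc22 on day 12. SMED30015120 had 233, 226, 189 and 224 RPKM in pax5 day 12 libraries and 164, 144, 134 and 133 RPKM in unc22, without overlap (SE 0.16, adjusted p = 0.00991). The 8 members with a single high zfp1 day 18 library had pax5 day 6 changes of 0.53 to 1.32 against unc22 (SE 0.45 to 0.69). Their libraries overlapped between the groups, and none passed the limma test (adjusted p = 0.260 to 0.673). These SE include the unequal zfp1 day 18 libraries for which the 8 were singled out, so a missing call does not show a missing difference. On day 18, SMED30007501, SMED30003676, SMED30024391, SMED30013673, SMED30017639 and SMED30004394 had every pax5 library above every sox8 library. SMED30028552 and SMED30011034 overlapped, and none of the 8 was called. Of all 90 members, 21 had every pax5 library above every sox8 library. The share of all features in that state is not given here, so nothing is read from it.

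**Figure D5:**
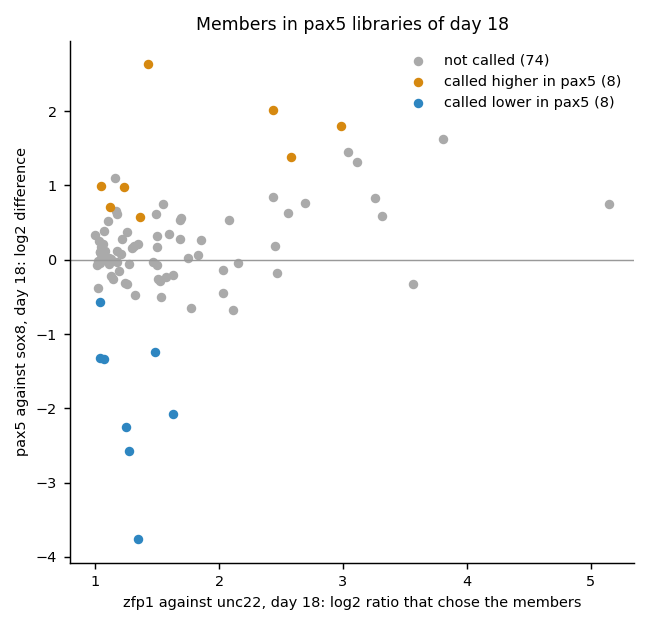
Each point is a member, with the day 18 log2 ratio of zfp1 to unc22 that chose it on the horizontal axis and the limma log2 change of pax5 against sox8 on day 18 on the vertical axis. The 8 members called higher run up to 2.63 and the 8 called lower down to -3.76, while the other 74 were not called.

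The comparisons of zfp1 and of pax5 with unc22 on day 6 share control libraries. The change in a direct comparison of zfp1 with pax5 used neither those nor, beyond the mean over all 48, any library of the rule. Its SE and p-values still drew on the spread within all 12 groups, among them those that chose the members. Limma called 9 members higher in zfp1 (10%) and 8 lower (8.89%), against 3.55% and 4.18% of all features tested, with a median of -0.10 against -0.0014. Without pax5 day 6 replicate 4 the count of higher members was 5. The largest differences were those of SMED30007443, at 1.90 (SE 0.17, adjusted p = 6.55e-12), and SMED30032382, at 1.20 (SE 0.13, adjusted p = 3.10e-09), on the higher side. SMED30022734, at -2.43 (SE 0.36, adjusted p = 3.88e-06), and SMED30033800, at -2.0 (SE 0.27, adjusted p = 5.40e-07), led the lower side. All 4 are members that pax5 itself moved against unc22 on that day, and the zfp1 libraries held 21.1 to 32.4, 7.86 to 12.2, 1.20 to 3.19 and 1.37 to 1.79 RPKM for them, in that order. SMED30016901 was of another kind, at 0.67 (SE 0.07, adjusted p = 2.49e-09), with pax5 libraries of 4.89 to 5.16 RPKM, near those of unc22. It was not alone, since SMED30002437 was called higher at 0.37 (SE 0.10, adjusted p = 0.00849). Its day 6 mean was 13.1 RPKM in pax5 and 12.3 RPKM in unc22.

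Over time within pax5, members called lower outnumbered those called higher, and the same held by description in unc22, whose libraries entered the rule. From day 6 to day 18 limma called 19 higher (21.1%) and 35 lower (38.9%), against 21.4% and 20.2% of all features tested, and the median was -0.32 against -0.016. From day 6 to day 12 it called 8 higher (8.89%) and 29 lower (32.2%), against 11.8% and 12.3%, and the median was -0.32 against -0.0063. In unc22 limma called 22 higher and 30 lower from day 6 to day 18, against 21.3% and 17.0% of all features tested, and 5 higher and 20 lower from day 6 to day 12, against 10.6% and 7.33%. SMED30003738 had 45.6, 64.4, 37.0 and 39.7 RPKM on day 6 and 12.9, 7.90, 6.40 and 9.07 RPKM on day 12. It fell by 2.31 on the log2 scale (SE 0.26, adjusted p = 7.31e-09) with no overlap. In zfp1 the same member was at 74.5, 65.2, 61.8 and 55.8 RPKM on day 6, 13.9, 9.21, 11.6 and 9.98 RPKM on day 12 and 87.4, 163, 254 and 104 RPKM on day 18, so it was lower on day 12 and higher again on day 18 there. SMED30028319 rose with pax5 from 9.44, 7.89, 8.48 and 7.51 RPKM on day 6 to 37.2, 38.9, 28.8 and 42.4 RPKM on day 18, a change of 2.07 (SE 0.23, adjusted p = 6.96e-10). It was at 57.6, 51.7, 84.3 and 59.0 RPKM in zfp1 on day 18 and at 21.6, 37.4, 32.1 and 25.3 RPKM in unc22.

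Summed over all 90, the members took a small share of the table. In unc22 day 18 libraries they held 0.175 ± 0.025% of the summed RPKM (SD, n = 4), and in zfp1 day 18 libraries 0.641 ± 0.337%, with replicate 3 at 1.15% and the others at 0.447% to 0.505%. On day 6 the share was 0.241 ± 0.042% in unc22, 0.266 ± 0.040% in zfp1, 0.309 ± 0.087% in sox8 and 0.300 ± 0.047% in pax5, differences within or near the spread of the libraries. On day 18 sox8 stood at 0.170 ± 0.007% and pax5 at 0.186 ± 0.021%, near the control. These sums carry no test, since they are a score over members chosen with results known.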

How the data were processed

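Polyadenylated RNA of whole worms was sequenced from TruSeq libraries, per the labels' protocols. The authors deposited 1 table of RPKM values for 28413 features and 48 libraries. The submitters' processing notes list CASAVA 1.8.2, Bowtie and edgeR but give them no role or order. Reference, annotation and filters are not given in the sources used here. The labels' protocol text also speaks of sorted cells, which no sample used here is labelled as.

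Libraries were grouped by the RNAi and day of their labels. Members were found by the stated ratios of group means plus 0.5 RPKM. The members, the lists and the tests were chosen with earlier results of these data known. Features with a mean of at least 0.5 RPKM, 22667 in all and including all 90 members, were tested with limma 3.58.1 in R 4.3.3 on log2(RPKM + 0.5), which understates the changes of low features. All 12 groups were in 1 model with trend and robust options, so every SE draws on the spread within all 12, including the groups that chose the members. The p-values are two-sided and Benjamini-Hochberg adjusted over all features tested. Called means an adjusted p under 0.05. The ratio of group means used by the rule and the limma change, a difference of mean log2 values, therefore differ slightly. Of the 19 contrasts, 7 were tests of differences that the rule did not use, although in 4 of them unc22 or sox8 libraries entered it through bounds, and 12 were descriptions. The limma code was tested on simulated data.

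Named members were, per tested contrast, the 2 largest rises and the 2 largest falls among called members whose higher group had a mean of 1 RPKM or more and did not overlap the other. To these were added the 2 of largest ratio, the 2 of highest control level, the member with the most unequal zfp1 day 18 libraries and those next to the threshold. Any further member was singled out after its values were seen. Planned lists of marker and pathway genes need gene names and were not tested. The planned permutation test of the summed level was not run, since the members were chosen with results known.

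Depth came from whole reads recovered from the steps between RPKM values, which worked for all 28413 features (values within 0.0001 of whole, and at most 1.98e-09 away). Alternatives were other pseudocounts, filters, scalings, a fit of the groups compared alone, library weights, the replicate number as a block, and leaving out each library in turn. Other steps used Python 3.11.15, pandas 2.3.3 and numpy 2.4.6, and plots matplotlib 3.10.9.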

Additional observations from a re-analysis of the deposited data

Results flagged for a closer look

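The 228 groups of 4 libraries checked, those of 18 named members and the summed level, were set against 20 flags (8.77%). Of these flags, 1 was the difference between days of SMED30026906 given below, which is not an outlying library. Every other flag was a library whose gap to the nearest of the others was large for the range of the group. Chance alone flags about 1 group in 20 of a neutral sample, which these groups are not. SMED30028552 and SMED30007501 were named for their zfp1 day 18 levels, and the summed share covers members chosen by those libraries. Their flags there follow in part from the choice, and the 8.77% counts the flag of SMED30026906 too, so it cannot be set against the chance rate. No cause was tested.

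Replicate 3 of zfp1 day 18 was far above the others for SMED30028552, at 518 RPKM (others 12.6 to 17.0), for SMED30007501, at 366 RPKM (27.3 to 34.3), and for the summed share of all members, at 1.15% (0.447% to 0.505%). SMED30019249 had a low zfp1 day 18 replicate 2, at 72.0 RPKM (86.3 to 87.3). On day 6, zfp1 replicate 1 was high for SMED30007443, at 32.4 RPKM (21.1 to 22.9), replicate 2 for SMED30007501, at 99.4 RPKM (25.7 to 30.8), and replicate 4 for SMED30022734, at 3.19 RPKM (1.20 to 1.34).

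In the control, unc22 day 12 replicate 1 was high for SMED30007443, at 19.9 RPKM (12.6 to 13.8), for SMED30028552, at 6.88 RPKM (3.69 to 4.22), and for SMED30031202, at 2.13 RPKM (0.131 to 0.443). On that day replicate 3 was high for SMED30029408, at 1.54 RPKM (0.713 to 0.765), and replicate 4 low for SMED30034302, at 0.481 RPKM (0.673 to 0.711). On day 18, unc22 replicate 2 was high for SMED30019249, at 39.0 RPKM (31.8 to 32.8).

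With pax5, day 6 replicate 1 was high for SMED30029408, at 1.38 RPKM (0.677 to 0.774), and replicate 3 for SMED30032357, at 5.38 RPKM (3.81 to 4.06). Day 12 replicate 3 was high for SMED30031202, at 4.85 RPKM (3.26 to 3.47), and day 18 replicate 1 for SMED30035485, at 20.4 RPKM (13.7 to 14.7). With sox8, day 6 replicate 3 was high for SMED30035485, at 562 RPKM (237 to 284), and day 18 replicate 4 low for SMED30033800, at 3.57 RPKM (4.11 to 4.21).

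SMED30026906 differed between days. Every zfp1 library was below every unc22 library on day 6, at a log2 change of -0.45, and above every one on day 18. The difference between the days was not tested.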

How the results depend on the processing

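Of the counts of called members, 242 of 252 alternative values stayed within 1.5 times the value reported, and all 126 alternative medians kept their sign and moved by less than 0.1 on the log2 scale. For zfp1 against unc22 on day 6, the members called higher numbered 8 when libraries were weighted and 3 when the groups compared were fitted alone (4 to 5 when a library was left out), and those called lower 0 to 1 when a library was left out. For pax5 against sox8 on day 18, 22 were called higher in a fit of the groups compared alone. For zfp1 against pax5 on day 6, 5 to 9 were called higher when a library was left out. Shares of all features are not given for these alternatives, so their counts say nothing about the members beside other features. The number of members was 37 with a day 18 ratio of at least 1.5, 69 to 104 when a library was left out, and 101 after quantile normalization. As a mean of log2 values, the member level in pax5 differed by -0.31 from day 6 to day 18 and by -0.39 to day 12, against -0.69 and -0.72 for the summed share. Of 486 alternative values of named members, 476 kept direction and call, 10 lost the call (SMED30032357 and SMED30026906 on day 6, as given above) and none changed sign. The causes were not tested.

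With the replicate number as a block, 7 rather than 8 members were called higher in pax5 than in sox8 on day 18, and the counts of the other 6 contrasts did not move. Same-numbered libraries did not deviate together (correlations from -0.419 to 0.217), and 7 of 28 libraries correlated best with their own number, so the numbers were not taken as pairs. Counting error limits members of few reads, the least being 4 in an unc22 day 18 library.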
